A study of Mus musculus with 27 samples.

Results

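The early response of B cells to interleukin 4 (IL-4) was read from 6 of 27 polyA RNA-seq libraries. In 3 of them primary B cells from mouse spleen had been cultured for 6 h with an antibody that triggers CD40 (anti-CD40, 1 µg/mL, clone HM40-3) and IL-4 at 12.5 ng/mL, and in the other 3 with anti-CD40 alone. Both groups, like all others in the series, were wild type and received the same medium, so the only labelled difference between them was IL-4. The remaining 21 libraries were naive B cells without stimulation, the same pair of cultures at 24 h, and cultures with IL-21 at 50 ng/mL, with or without IL-4, at 6 h and 24 h, again in groups of 3. The series was designed to study IL-21, and this pair of groups shows the response to IL-4 in cultures that had no IL-21. Strain, sex and age are not given in the sources used here. No label says if the replicates of a group were separate animals or cultures, and the p-values therefore measure only the spread among these samples, which could be technical.

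As background, IL-4 binds a receptor made of the IL-4 receptor alpha chain (Il4ra) and the common gamma chain (Il2rg), and the kinases JAK1 and JAK3 on these chains phosphorylate STAT6, which enters the nucleus and binds DNA. SOCS family proteins and CISH are made in response to cytokines and damp the same receptors. In B cells IL-4 is known for germline transcription of the IgG1 and IgE constant genes ahead of class switching, for more CD23 (Fcer2a) and MHC class II, and for growth and survival together with CD40. CD40 signals mainly through TRAF adaptors and NF-kB.

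Levels are in TPM as deposited, a share of all transcripts per length. TPM scales each gene by its length and each library to a fixed total, so sequencing depth is unknown. The listed genes did not sum to a fixed total. Their sums were 784816 to 808024 TPM in the 6 libraries and 766384 to 825365 TPM in all 27. Of 35604 genes, 12147 reached 1 TPM in at least 3 of the 27 libraries and were tested. Differences are means of log2(TPM + 1) with IL-4 minus without, ± their standard error, from limma fitted over all 27 libraries in groups of 3; adjusted p-values are Benjamini-Hochberg values from the same fit. This scale understates changes of genes with low values. An adjusted p below 0.05 over all genes tested made a gene called, and only called genes are said to have risen or fallen. Mitochondrially encoded transcripts made up 9.85% to 11.3% of the listed total without IL-4, 10.2% and 10.6% in replicates 1 and 2 with IL-4, and 6.91% in replicate 3 with IL-4. Correlations of log2(TPM + 1) were 0.969 to 0.977 within the groups and 0.946 to 0.966 between them, and 0 pairs of libraries were identical. The B cell markers Ms4a1, Cd79a, Cd79b, Cd22 and Pax5 were present in every library, and none of these 5 was called. Over the 6 libraries Ms4a1 was at 353 to 427 TPM, Cd79b at 447 to 1109 TPM and Pax5 at 34.8 to 55.1 TPM. Cd79a varied from 88.1 to 785 TPM, with means of 462 TPM without IL-4 and 170 TPM with it. Cd22 varied from 5.23 to 29.02 TPM, with means of 8.35 TPM without IL-4 and 16.5 TPM with it.

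IL-4 raised 200 genes and lowered 291 within 6 h, which is 1.65% and 2.4% of the genes tested and 4.04% together. Of these, 146 rose and 183 fell at least 2-fold, 467 of the 491 were protein coding, and the median difference over all genes was 0.02. After median-of-ratios rescaling of the libraries the calls numbered 759, with 334 higher and 425 lower. All 200 risen genes and 288 of the 291 fallen genes had 3 libraries with IL-4 that did not overlap the 3 without. Over all genes tested, called or not, 13.3% did not overlap in the upward direction and 11.7% in the downward direction. The rises reached further than the falls: the top rise, Cish, differed by 5.71 ± 0.31 and the largest named fall, Fcrl1, by -2.71 ± 0.23. In bulk RNA, more transcript per cell and more cells of a kind that makes it cannot be told apart.

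**Figure D1:**
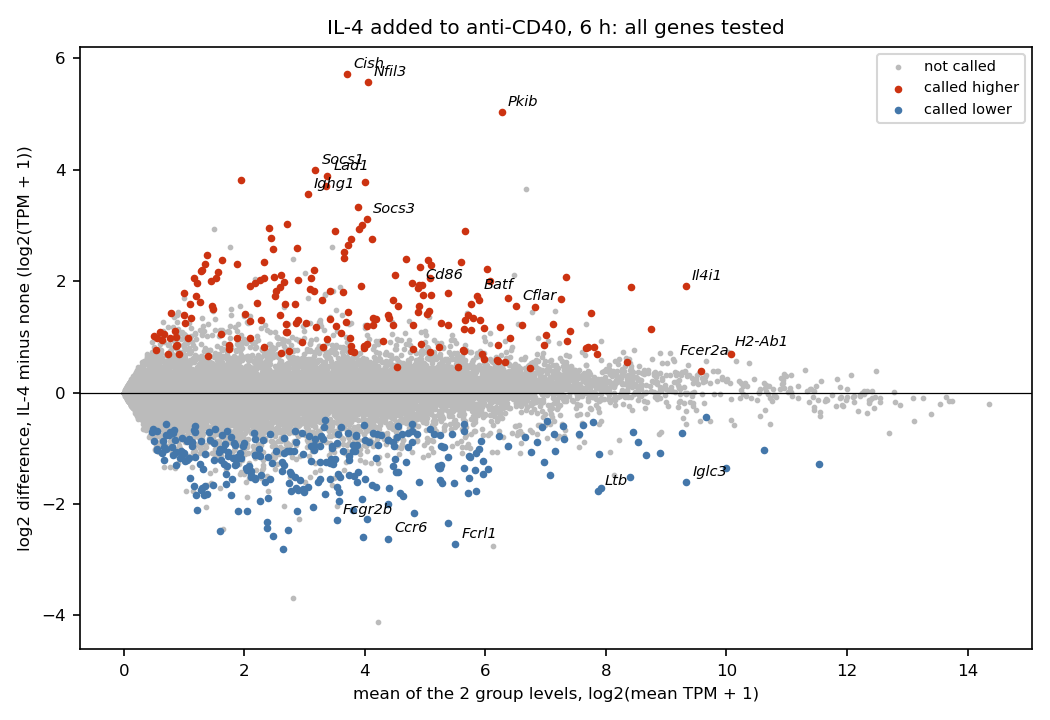
Each point is 1 of the 12147 genes tested, with the mean of both groups' levels in log2(mean TPM + 1) on the x axis and the log2 difference with IL-4 minus without on the y axis. The 200 called rises (red) extend above a difference of 5 for Cish, Nfil3 and Pkib, while the 291 called falls (blue) stay above -3, and Fcer2a and H2-Ab1, among the more abundant genes, were not called at 0.57 and 0.73.

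No chain of the IL-4 receptor and none of its kinases was called. Il4ra (ENSMUSG00000030748, chr7:125552120-125579474, plus strand) was listed at 44.98, 25.5 and 16.5 TPM without IL-4 and 105, 54.1 and 29.9 TPM with it and was not called (log2 difference 1.03 ± 0.45, adjusted p = 0.333). The ranges overlapped, although IL-4 was higher in each of the 3 pairs with the same replicate number, by 0.82 to 1.21. Il2rg (-0.67 ± 0.52), Jak1 (0.05 ± 0.29), Jak3 (0.66 ± 0.38) and Stat6 itself (0.11 ± 0.43) were not called either. Of 16 genes for the IL-4 receptor, JAKs and STATs, 2 rose, none fell and 14 were not called, with a median of 0.12. For comparison, 1.65% of all genes rose and 2.4% fell. The risen pair was Stat5a and Stat5b, encoding STATs used by the IL-2 and IL-7 receptors. Stat5a (ENSMUSG00000004043, chr11:100859351-100885169, plus strand) was at 20.9, 19.3 and 24.2 TPM without IL-4 and 77.5, 74.3 and 78.5 TPM with it (log2 difference 1.8 ± 0.33, adjusted p = 0.00105). Its 3 values with IL-4 were close together and far above the 3 without. Stat5b rose by 1.21 ± 0.32 (adjusted p = 0.0315), and its call was lost without replicate 1 or 2 without IL-4 or replicate 1, 2 or 3 with it (adjusted p = 0.0849 to 0.128). Of 18 other cytokine receptor genes only Il7r, the IL-7 receptor alpha chain, was called, with a rise from 0.801, 0.587 and 0.441 TPM without IL-4 to 4.31, 3.11 and 3.74 TPM with it (1.55 ± 0.16, adjusted p = 1.25e-06).

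The largest rise was in Cish, and 2 other inhibitors of the SOCS family, Socs1 and Socs3, were among the 14 largest. Cish (ENSMUSG00000032578, chr9:107296026-107302784, plus strand), which encodes a SOCS family inhibitor of STAT5-activating receptors, was listed at 1.02, 0.444 and 0.966 TPM without IL-4 and 94.3, 80.9 and 105 TPM with it (log2 difference 5.71 ± 0.31, adjusted p = 2.61e-11). Socs1 (ENSMUSG00000038037, chr16:10782240-10785536, minus strand), an inhibitor of JAK kinases, was at 1.5, 1.04 and 1.26 TPM without IL-4 and 42.1, 31.4 and 32.1 TPM with it (log2 difference 3.99 ± 0.32, adjusted p = 1.35e-08). Socs3 (ENSMUSG00000053113, chr11:117966079-117970047, minus strand), an inhibitor best known for receptors of the gp130 class, was at 5.21, 3.7 and 4.84 TPM without IL-4 and 53.3, 47.95 and 40.8 TPM with it (log2 difference 3.12 ± 0.27, adjusted p = 6.96e-08). All 3 were low in every library without IL-4 and high in every library with it, with wide gaps between the groups. Over the list of 17 SOCS and feedback genes, 4 rose, 1 fell and 12 were not called. Their median was 0.20, and of all genes 1.65% rose and 2.4% fell. The fourth rise was Dusp5, a nuclear phosphatase of ERK kinases (1.22 ± 0.28, adjusted p = 0.00896), lost without replicate 2 without IL-4 or replicate 1 with it (adjusted p = 0.053 to 0.0561). The fall was Socs5 (-0.95 ± 0.26, adjusted p = 0.0418), lost without replicate 1, 2 or 3 without IL-4 or replicate 1, 2 or 3 with it (adjusted p = 0.0835 to 0.162). Socs2 stood at 2.54, 3.27 and 5.3 TPM without IL-4 and 2.37, 1.999 and 1.71 TPM with it and was not called (log2 difference -0.60 ± 0.46, adjusted p = 0.746).

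The largest rises after Cish were in Nfil3 and Pkib. Nfil3 (ENSMUSG00000056749, chr13:52967209-52981073, minus strand), a basic leucine zipper transcription factor that takes part in the switch to IgE, was at 1.65, 0.972 and 1.61 TPM without IL-4 and 122, 102 and 113 TPM with it (log2 difference 5.57 ± 0.28, adjusted p = 9.58e-12). Pkib (ENSMUSG00000019876, chr10:57631981-57741112, plus strand), an inhibitor of protein kinase A, was at 10.6, 14.7 and 12.4 TPM without IL-4 and 461, 466 and 390.1 TPM with it (log2 difference 5.03 ± 0.21, adjusted p = 6.07e-13). Pkib was thus detected in every library without IL-4 and became an abundant transcript with it, while Nfil3 was listed below 2 TPM without it. Naive cells had 17.9 ± 7.23 TPM of Pkib and 0.419 ± 0.0921 TPM of Nfil3 (mean ± SD, n = 3).

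STAT dimers bind palindromes made of TTC and GAA, and STAT6 is known to prefer a spacer of 4 bases of any kind between them over the spacer of 3 that most other STATs bind. Both motifs are their own reverse complement, so 1 search covered both strands. Windows of 300 bases around RefSeq gene starts (GRCm38.p6) were searched in the 8438 of 12140 tested symbols with such a window; a gene counted once if any of its windows held the motif. The motif with the 4-base spacer was found in 18 of 139 risen genes with a window (12.9%), 16 of 213 fallen genes (7.51%) and 6.71% of all genes tested, and in 6.95% of all 32851 windows. The motif with the 3-base spacer was found in 12.2% of risen genes, 7.98% of fallen genes, 8.52% of genes tested and 8.3% of all windows. Of the 14 largest named rises 12 had a window, and 3 of them (Pkib, Dhrs3 and St7) held the 4-base spacer motif, beside 2 of 13 named falls with a window. The 3-base spacer motif was in 3 of the 12 named rises and 2 of the 13 named falls. The windows of Pkib, Dhrs3 and St7 are shown because they carry the motif in front of some of the largest rises, and that of Cish because it holds the 3-base spacer motif in 2 places side by side. Cish was chosen after its motif count was seen. Capitals mark every match to either motif, the sequences are from RefSeq in 5′ to 3′ direction on the plus strand, and a match is a description, not a binding site.
Cish, chr9:107296409-107296708: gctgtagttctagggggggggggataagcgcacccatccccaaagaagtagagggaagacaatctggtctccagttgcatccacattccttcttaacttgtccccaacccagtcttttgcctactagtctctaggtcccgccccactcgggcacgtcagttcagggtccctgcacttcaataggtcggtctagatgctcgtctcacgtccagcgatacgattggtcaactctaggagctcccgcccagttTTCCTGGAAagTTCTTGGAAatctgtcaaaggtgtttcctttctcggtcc
Pkib, chr10:57631731-57632030: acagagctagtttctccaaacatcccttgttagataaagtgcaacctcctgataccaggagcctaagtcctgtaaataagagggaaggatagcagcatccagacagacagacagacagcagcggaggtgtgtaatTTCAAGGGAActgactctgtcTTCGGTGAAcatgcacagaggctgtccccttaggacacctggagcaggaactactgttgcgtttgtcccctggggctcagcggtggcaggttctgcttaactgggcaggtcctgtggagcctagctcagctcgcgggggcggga
Dhrs3, chr4:144892827-144893126: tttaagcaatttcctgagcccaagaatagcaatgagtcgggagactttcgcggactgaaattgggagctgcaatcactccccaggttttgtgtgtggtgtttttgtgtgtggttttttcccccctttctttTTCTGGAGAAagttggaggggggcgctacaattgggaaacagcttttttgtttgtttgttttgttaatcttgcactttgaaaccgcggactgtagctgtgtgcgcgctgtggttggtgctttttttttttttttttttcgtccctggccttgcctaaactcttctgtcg
St7, chr6:17748920-17749219: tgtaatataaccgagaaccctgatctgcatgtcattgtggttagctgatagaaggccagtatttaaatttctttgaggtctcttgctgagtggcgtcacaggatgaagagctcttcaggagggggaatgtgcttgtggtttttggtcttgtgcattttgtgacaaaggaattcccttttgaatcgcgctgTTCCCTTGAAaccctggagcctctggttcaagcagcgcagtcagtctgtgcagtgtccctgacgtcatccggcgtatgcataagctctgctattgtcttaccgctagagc
In Pkib the match to the 4-base spacer motif began at position -115 relative to the start, in Dhrs3 at -119 and in St7 at -60. Pkib had 2 windows, and Dhrs3 and St7 had 3 each, of which 1 is shown. The windows of Nfil3, Socs1, Lad1, Rab35, Snx29, Dock10 and Egr2 held neither motif, and that of Socs3 held the 3-base spacer motif only.

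The other named rises encode proteins of varied function. Lad1, encoding the anchoring protein ladinin, was at 1.53, 1.48 and 2.08 TPM without IL-4 and 41.6, 34.2 and 41.3 TPM with it (log2 difference 3.89 ± 0.31). Dhrs3, a reductase that turns retinal into retinol, was at 4.22, 2.56 and 3.25 TPM without IL-4 and 66.9, 54.3 and 54.7 TPM with it (3.79 ± 0.28). Snx29, a member of the sorting nexins, was at 2.3, 1.57 and 1.69 TPM without IL-4 and 39.1, 34.8 and 34.3 TPM with it (3.71 ± 0.30). In all 3 genes the libraries within a group lay close together and the groups were far apart. St7 was at 4.94, 1.9 and 4.26 TPM without IL-4 and 62.7, 45.6 and 29.96 TPM with it (3.33 ± 0.36), with replicate 3 the lowest of the libraries with IL-4. Prag1, a pseudokinase, rose by 3.03 ± 0.36, Dock10, a guanine nucleotide exchange factor, by 3.002 ± 0.31, and Egr2, a zinc finger transcription factor induced by antigen receptors, by 2.95 ± 0.49. Rab35, a GTPase of endosomal recycling, was listed at 0 in all 3 libraries without IL-4 and at 14.02, 19.7 and 7.95 TPM with it. In naive cells it was listed at 2.79, 0 and 0 TPM and with anti-CD40 at 24 h at 14.2, 11.2 and 9.24 TPM, and no fold is given against listed zeros. Adjusted p-values of these 8 genes ranged from 4.11e-09 (Dhrs3) to 0.000352 (Egr2).

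**Figure D2:**
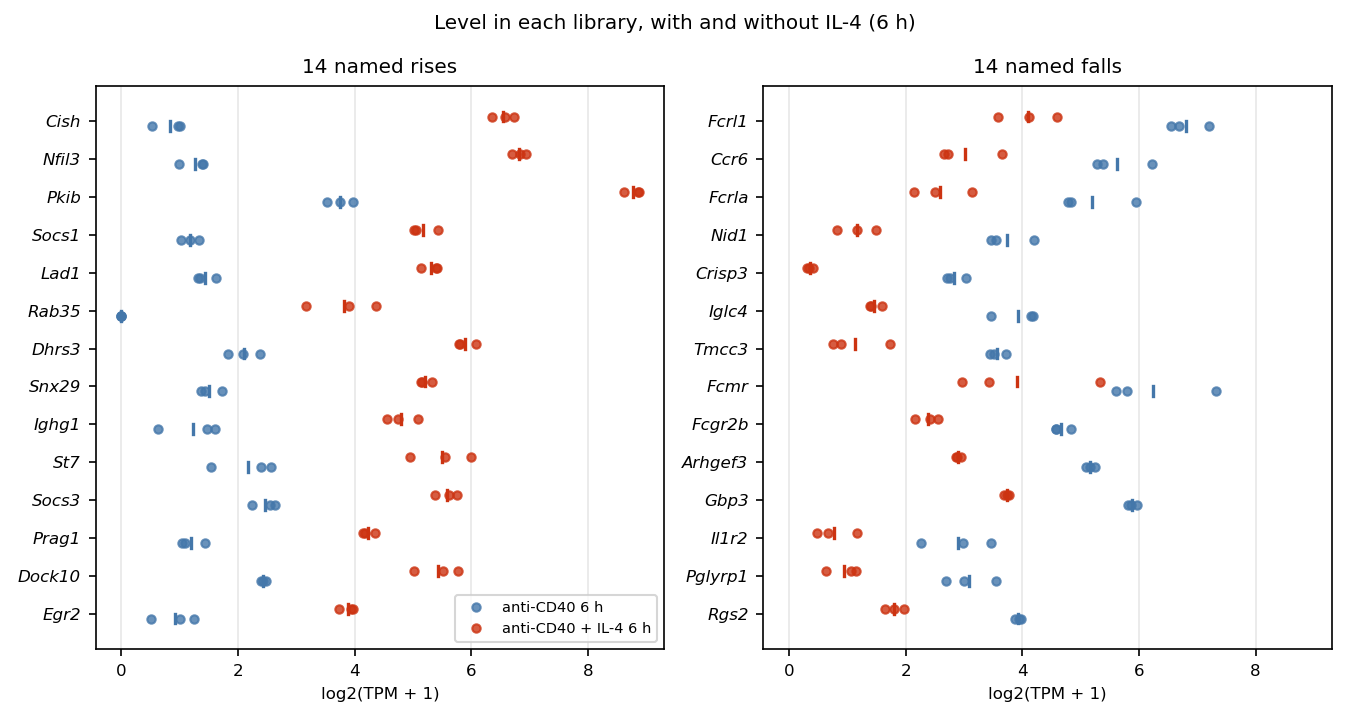
Levels in log2(TPM + 1) of the 14 named rises (left) and the 14 named falls (right) in each of the 6 libraries, with blue points for anti-CD40 alone, red points for anti-CD40 with IL-4, and short bars for the group means. Only genes without overlap between the groups could be chosen for this figure. Rab35 is listed at 0 in all 3 libraries without IL-4, and Fcmr has the widest spread among the falls.

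Among 17 known IL-4 and STAT6 target genes measured, 8 rose (Cish, Nfil3, Socs1, Ighg1, Ighe, Ccl17, Cd86 and Il4i1), none fell and 9 were not called. The median was 1.11, beside 0.02 for all genes, of which 1.65% rose and 2.4% fell. This list was chosen with earlier results of these data known, so its counts and median are a description and not a test. Ighg1 (ENSMUSG00000076614, chr12:113325240-113330523, minus strand), the IgG1 constant gene, was at 1.77, 0.543 and 2.03 TPM without IL-4 and 22.5, 25.9 and 32.9 TPM with it (log2 difference 3.56 ± 0.42, adjusted p = 6.01e-06). Ighe (ENSMUSG00000087642, chr12:113269260-113273248, minus strand), the IgE constant gene, was at 0.210, 0.264 and 0.804 TPM without IL-4 and 4.03, 5.01 and 5.63 TPM with it (log2 difference 2.06 ± 0.30, adjusted p = 9.07e-05). Both were low in every library without IL-4 and did not overlap between the groups, and the gene-level values do not separate germline from switched transcripts. Of the 12 immunoglobulin constant genes these were the only rises, 3 fell and 7 were not called, among them Ighm (-0.50 ± 0.37), Ighd (-0.74 ± 0.32), Ighg3 (0.66 ± 0.35) and Ighg2b (-0.50 ± 0.31).

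Cd86 (ENSMUSG00000022901, chr16:36603869-36666081, minus strand), a costimulatory ligand for CD28, was at 11.8, 18.8 and 12.8 TPM without IL-4 and 55.6, 62.7 and 52.8 TPM with it (log2 difference 1.93 ± 0.21, adjusted p = 2.15e-06). Ccl17, a chemokine for CCR4-bearing T cells, was at 0.104, 0.140 and 0 TPM without IL-4 and 3.19, 2.55 and 5.09 TPM with it (log2 difference 2.06 ± 0.23, adjusted p = 3.12e-06). The groups did not overlap in either gene, although Ccl17 remained a low transcript. Il4i1, a secreted amino acid oxidase, was at 503, 277 and 196 TPM without IL-4 and 1942, 1158 and 661 TPM with it (log2 difference 1.92 ± 0.42, adjusted p = 0.00576). Every same-numbered pair was 1.75 to 2.06 higher with IL-4, and the call was lost without replicate 3 without IL-4 or replicate 1 with it (adjusted p = 0.0552 to 0.0589). Ccl22, the second CCR4 ligand, was at 21.8, 18.4 and 22.5 TPM without IL-4 and 49.7, 42.2 and 46.4 TPM with it and was not called (log2 difference 1.11 ± 0.36, adjusted p = 0.0982); with the replicate number as a block it was (adjusted p = 0.0359).

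Fcer2a (ENSMUSG00000005540, chr8:3681737-3694175, minus strand), which encodes CD23, a marker of IL-4 action on B cells, was not called at 6 h. It was listed at 765, 325 and 240.2 TPM without IL-4 and 1299.7, 492 and 305 TPM with it (log2 difference 0.57 ± 0.58, adjusted p = 0.853). The groups overlapped, and replicates within a group spread more widely than the group means differed. Each same-numbered pair was higher with IL-4, by 0.34 to 0.76, and naive cells had 196 ± 105 TPM.

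**Figure D3:**
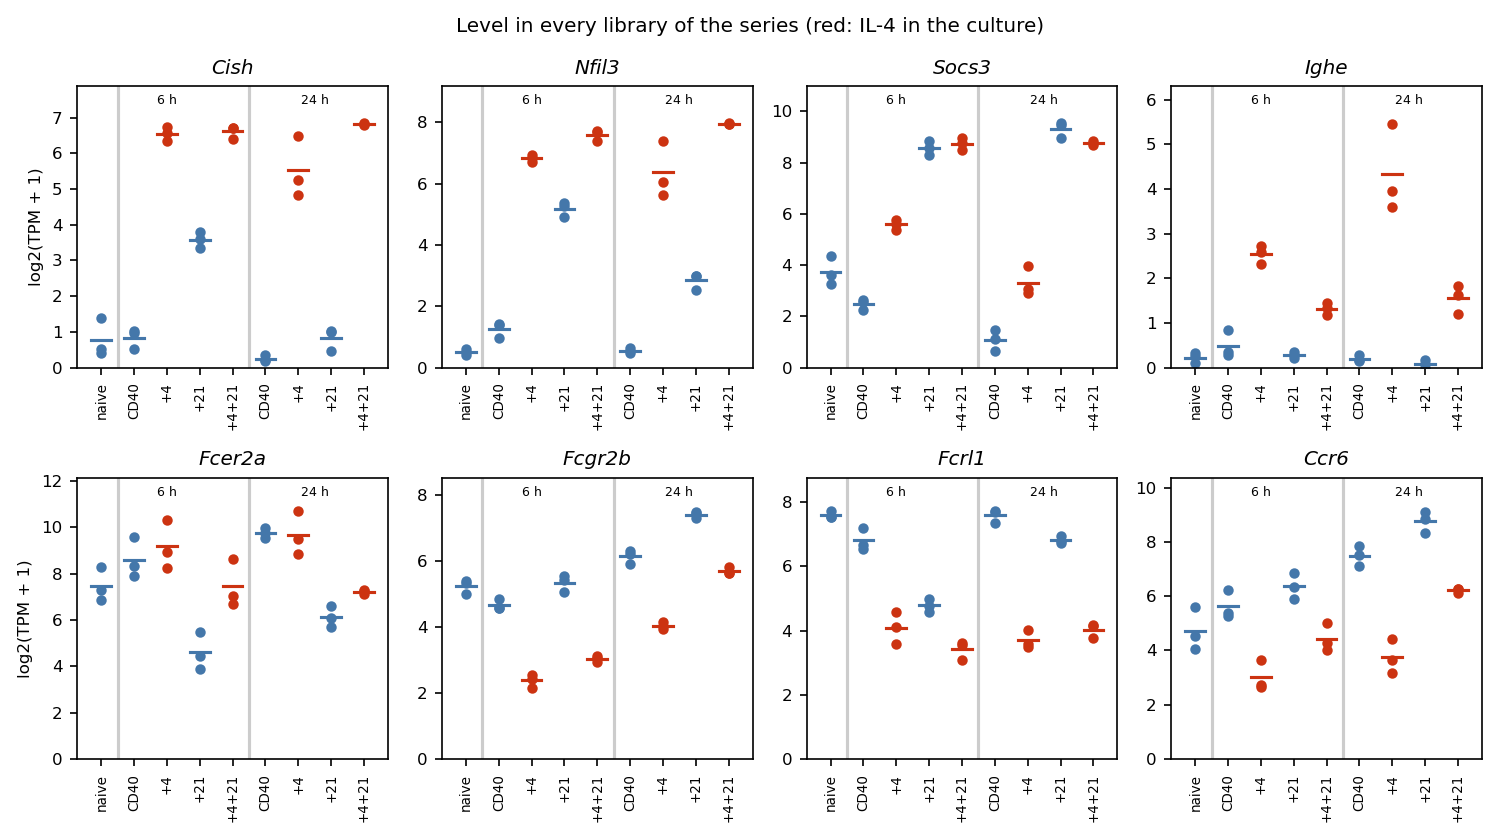
Levels in log2(TPM + 1) of 8 genes in all 27 libraries, in groups of 3 from naive through 6 h to 24 h; red points had IL-4 in the culture, bars are group means, and the labels +4 and +21 stand for IL-4 and IL-21 added to anti-CD40. Cish and Nfil3 are high in every library with IL-4, Socs3 reaches its highest levels with IL-21, and Fcer2a overlaps between anti-CD40 with and without IL-4 at both times.

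Of 12 genes for MHC class II and its accessory proteins, 3 rose, 1 fell and 8 were not called, with a median of 0.61; over all genes 4.04% were called. H2-DMb1, a chain of the peptide exchange factor of MHC class II, was at 23.9, 8.88 and 14.8 TPM without IL-4 and 81.7, 78.5 and 41.6 TPM with it (log2 difference 2.06 ± 0.37, adjusted p = 0.000997), a call lost in a fit of only the groups compared (adjusted p = 0.052). Its neighbour H2-DMb2, a closely similar copy, rose by 1.67 ± 0.42 (adjusted p = 0.0202), a call lost without replicate 2 or 3 without IL-4 or replicate 1 with it (adjusted p = 0.11 to 0.142). Reads could be split between the copies in either way, so their separate values are uncertain. Ciita, the master coactivator of MHC class II transcription, rose from 10.04, 7.71 and 11.97 TPM without IL-4 to 26.8, 21.98 and 22.2 TPM with it (1.19 ± 0.32, adjusted p = 0.0308); the call was lost without replicate 1 or 2 without IL-4 or replicate 1, 2 or 3 with it (adjusted p = 0.0722 to 0.162). The class II chains themselves were not called: H2-Ab1 was at 1252, 650.1 and 402 TPM without IL-4 and 2636, 1037 and 549 TPM with it (log2 difference 0.73 ± 0.57, adjusted p = 0.758), H2-Aa differed by 0.88 ± 0.35 and H2-Eb1 by 0.49 ± 0.52. All 3 same-numbered pairs were higher with IL-4 for H2-Ab1 (0.45 to 1.07), H2-Aa (0.50 to 1.14), H2-Eb1 (0.22 to 0.88) and H2-DMa (1.31 to 1.62), and 1 of 3 pairs for Cd74, the invariant chain. Ctss, the protease cathepsin S, fell by 0.72 ± 0.17 (adjusted p = 0.0111), and this call was lost without replicate 1 or 2 without IL-4 or replicate 3 with it (adjusted p = 0.0657 to 0.0918).

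Of the 14 largest named falls, 4 were in Fc receptor or Fc receptor-like genes (Fcrl1, Fcrla, Fcgr2b and Fcmr). They were picked from the falls and not from a list of the family, which also holds Fcer2a, not called. Fcrl1 (ENSMUSG00000059994, chr3:87376387-87402934, plus strand), a surface coreceptor, was at 146, 102 and 92.5 TPM without IL-4 and 23.1, 16.3 and 10.996 TPM with it (log2 difference -2.71 ± 0.23, adjusted p = 2.8e-08). Fcgr2b (ENSMUSG00000026656, chr1:170958617-170976547, minus strand), the inhibitory receptor for IgG complexes, was at 27.5, 23.02 and 22.9 TPM without IL-4 and 4.37, 4.89 and 3.46 TPM with it (log2 difference -2.29 ± 0.16, adjusted p = 2.28e-09). Fcrla, an intracellular member of the family, was at 60.5, 27.7 and 26.6 TPM without IL-4 and 7.81, 3.44 and 4.67 TPM with it (log2 difference -2.59 ± 0.43, adjusted p = 0.000427). All 3 were lower in every library with IL-4 than in any without, as the choice of the 14 named falls required. Fcrl5 fell by 1.52 ± 0.32 (adjusted p = 0.00382), a call lost in a fit of only the groups compared (adjusted p = 0.055). Fcmr, the receptor for IgM, had the widest replicates, at 159, 54.8 and 47.8 TPM without IL-4 and 39.2, 9.71 and 6.85 TPM with it (log2 difference -2.34 ± 0.64, adjusted p = 0.0391), and its call was lost without replicate 1 or 2 without IL-4 or replicate 2 or 3 with it (adjusted p = 0.0608 to 0.273).

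Of 16 mature B cell identity genes, 3 fell (Fcrla, Fcgr2b and Cd72), none rose and 13 were not called. Their median was -0.35, and of all genes 2.4% fell and 1.65% rose. Cd72, an inhibitory coreceptor, fell by 1.39 ± 0.29 (adjusted p = 0.00462), lost without replicate 1 without IL-4 (adjusted p = 0.0514). Pax5, the factor that holds B cell identity, was at 46.1, 34.8 and 55.1 TPM without IL-4 and 41.5, 37.4 and 50.9 TPM with it and was not called (-0.05 ± 0.38, adjusted p = 0.993). The lambda light chain constant genes fell together: Iglc3 was at 1336, 945 and 1089 TPM without IL-4 and 366, 403 and 329 TPM with it (log2 difference -1.6 ± 0.20, adjusted p = 9.17e-06), and the log2 difference was -1.35 ± 0.22 for Iglc2, -1.11 ± 0.26 for Iglc1 and -2.47 ± 0.55 for Iglc4, which the list did not hold. These 4 are related copies, and how alike they are was not examined here, so their separate values could be uncertain. The Iglc1 call was lost without replicate 1 without IL-4 (adjusted p = 0.093) and the Iglc4 call with a pseudocount of 0.1 (adjusted p = 0.104). The kappa constant gene Igkc stood at 12615, 7083 and 6008 TPM without IL-4 and 7077, 4405 and 3794 TPM with it and was not called (-0.73 ± 0.25, adjusted p = 0.148).

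Receptors that place B cells in tissue moved in both directions. Of 17 trafficking genes, 3 rose, 3 fell and 11 were not called, with a median of -0.22. The shares over all genes were 1.65% risen and 2.4% fallen. Ccr6 (ENSMUSG00000040899, chr17:8236043-8257141, plus strand), the receptor for the chemokine CCL20, was at 73.7, 40.7 and 37.9 TPM without IL-4 and 11.6, 5.59 and 5.31 TPM with it (log2 difference -2.62 ± 0.39, adjusted p = 0.000114). The groups did not overlap. Cxcr4, the receptor for CXCL12, fell by 1.61 ± 0.43 (adjusted p = 0.0301), lost without replicate 1 or 2 without IL-4 or replicate 2 or 3 with it (adjusted p = 0.0533 to 0.261). S1pr3, a sphingosine-1-phosphate receptor, rose from 0.383, 0.357 and 0.303 TPM without IL-4 to 7.65, 5.51 and 5.09 TPM with it (2.38 ± 0.32, adjusted p = 2.91e-05). Cd69, which holds lymphocytes in tissue by binding another receptor of that lipid, was at 124, 147 and 119 TPM without IL-4 and 316, 421 and 323 TPM with it (log2 difference 1.43 ± 0.21, adjusted p = 0.000107). Cd44, the hyaluronan receptor, rose by 1.7 ± 0.37 (adjusted p = 0.00543), lost without replicate 3 without IL-4 or replicate 1 with it (adjusted p = 0.0508 to 0.0581). Itgb3, the integrin beta 3 chain, rose by 1.9 ± 0.39 (adjusted p = 0.00324), a call lost in a fit of only the groups compared (adjusted p = 0.052).

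Among cytokines and TNF family ligands, 2 of 15 rose, 2 fell and 11 were not called, with a median of -0.19. For comparison, 1.65% of all genes rose and 2.4% fell. Ltb (ENSMUSG00000024399, chr17:35194439-35196320, plus strand), which encodes lymphotoxin beta, was at 556, 407 and 329 TPM without IL-4 and 161, 115 and 101 TPM with it (log2 difference -1.76 ± 0.23, adjusted p = 2.44e-05). Il12a, the p35 chain of IL-12 and IL-35, was at 20.9, 11.6 and 18.8 TPM without IL-4 and 2.89, 3.52 and 3.34 TPM with it (log2 difference -2.05 ± 0.24, adjusted p = 5e-06). Both fell in every library, and neither overlapped. Il10 rose by 0.69 ± 0.20 at low levels, from 0.753, 0.174 and 0.591 TPM without IL-4 to 1.4, 1.5 and 1.28 TPM with it (adjusted p = 0.0493); this call was lost without replicate 2 or 3 without IL-4 or replicate 1, 2 or 3 with it (adjusted p = 0.0872 to 0.301) and with the replicate number as a block (adjusted p = 0.0518). Il1r2, the decoy receptor for IL-1, fell from 6.89, 10.1 and 3.77 TPM without IL-4 to 1.25, 0.586 and 0.387 TPM with it (-2.13 ± 0.38, adjusted p = 0.000748).

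Of 16 costimulatory and checkpoint genes, 3 rose, 5 fell and 8 were not called, with a median of -0.18. The shares over all genes were 1.65% risen and 2.4% fallen. Beside Cd86, Cd83, a stabiliser of MHC class II and CD86 at the surface, rose from 937, 874 and 729 TPM without IL-4 to 1491, 1481 and 1167 TPM with it (0.70 ± 0.14, adjusted p = 0.00208), a call lost after median-of-ratios rescaling (adjusted p = 0.12) and in a fit of only the groups compared (adjusted p = 0.0601). Tnfrsf14, the receptor of LIGHT and BTLA, rose by 1.25 ± 0.33 (adjusted p = 0.0314), lost without replicate 2 or 3 without IL-4 or replicate 1, 2 or 3 with it (adjusted p = 0.0904 to 0.156). Tnfsf4, which encodes OX40 ligand, was at 10.4, 7.07 and 7.49 TPM without IL-4 and 1.37, 0.843 and 2.12 TPM with it (log2 difference -1.95 ± 0.22, adjusted p = 3.07e-06). Btla, an inhibitory receptor, was at 196, 206 and 170.3 TPM without IL-4 and 84.9, 96.3 and 61.9 TPM with it (log2 difference -1.24 ± 0.17, adjusted p = 4.71e-05). Both genes were lower in all 3 libraries with IL-4. Icosl, the ligand of ICOS on T cells, fell by 1.72 ± 0.37 (adjusted p = 0.00497), lost without replicate 1 without IL-4 (adjusted p = 0.052). Cd80, like Cd86 a ligand of CD28, fell by 0.78 ± 0.21 (adjusted p = 0.0361), lost without replicate 1 or 2 without IL-4 or replicate 1 or 3 with it (adjusted p = 0.0556 to 0.264). Cd86 and Cd80 thus moved in opposite directions, from 14.4 ± 3.81 to 57.02 ± 5.07 TPM and from 11.6 ± 2.77 to 6.35 ± 1.68 TPM (mean ± SD, n = 3).

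Among transcription regulators, Batf (ENSMUSG00000034266, chr12:85686669-85709087, plus strand), an AP-1 partner needed for class switching, was at 32.1, 27.8 and 32.9 TPM without IL-4 and 107, 96.1 and 114 TPM with it (log2 difference 1.74 ± 0.12, adjusted p = 1.39e-09). Of 21 AP-1 and immediate early genes, 3 rose (Egr2, Batf and Jund), none fell and 18 were not called. Their median was 0.33, and of all genes 1.65% rose and 2.4% fell. Jund rose by 1.15 ± 0.27 (adjusted p = 0.0104), lost without replicate 2 without IL-4 or replicate 1 with it (adjusted p = 0.0667 to 0.0694). The inhibitors of E proteins split by member: Id1 was at 3.49, 3.09 and 1.63 TPM without IL-4 and 14.7, 13.7 and 13.1 TPM with it (log2 difference 2.03 ± 0.27, adjusted p = 3.09e-05), whereas Id3 was at 44.5, 28.2 and 40.1 TPM without IL-4 and 11.3, 9.85 and 10.8 TPM with it (log2 difference -1.71 ± 0.24, adjusted p = 3.91e-05). Neither gene overlapped between the groups, and the Id1 call was lost with a pseudocount of 0.1 (adjusted p = 0.138). Id2 fell by 0.58 ± 0.13 (adjusted p = 0.00755), lost without replicate 3 with IL-4 (adjusted p = 0.0556), and the other 3 of 6 genes on the list were not called. Regulators of the germinal centre and plasma cell fates were not called in the main fit: Bcl6 was at 25.3, 24.9 and 31.1 TPM without IL-4 and 17.6, 17.6 and 16.1 TPM with it (log2 difference -0.63 ± 0.25, adjusted p = 0.25), and Irf4 (-0.02 ± 0.33), Prdm1 (0.16 ± 0.21), Xbp1 (0.91 ± 0.37) and Tbx21 (-0.20 ± 0.21) differed by less or varied more. Bcl6 was called in a fit of only the groups compared (adjusted p = 0.0445), and its lowest adjusted p over the alternatives was 0.0192. For Xbp1 the lowest adjusted p without 1 library was 0.0446. The absence of these 2 calls thus depends on the fit. Plasma cell genes had 1 fall in 12, Mzb1, a chaperone of IgM secretion (-0.70 ± 0.14, adjusted p = 0.00264), lost after median-of-ratios rescaling (adjusted p = 0.132). Germinal centre genes had 1 fall in 10, Basp1 (-1.16 ± 0.25, adjusted p = 0.00524), lost without replicate 3 without IL-4 (adjusted p = 0.0585). Such single falls stand beside 2.4% fallen over all genes.

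The survival, cell cycle and quiescence lists had 0 or 1 called member each, beside 4.04% of all genes. Cflar (ENSMUSG00000026031, chr1:58711508-58758884, plus strand), the inhibitor of caspase 8 known as c-FLIP, was at 48.1, 52.3 and 55.98 TPM without IL-4 and 139.9, 167 and 158 TPM with it (log2 difference 1.55 ± 0.14, adjusted p = 6.76e-08), the 1 rise among 11 anti-apoptotic genes. Bcl2l1, which encodes BCL-XL, was at 23.8, 27.2 and 33.04 TPM without IL-4 and 39.7, 31.7 and 35.7 TPM with it and was not called (0.34 ± 0.31, adjusted p = 0.819). Bcl2l11, the pro-apoptotic BIM, fell by 0.95 ± 0.23 (adjusted p = 0.0131), the 1 call among 9 pro-apoptotic genes, lost without replicate 3 without IL-4 (adjusted p = 0.0628). Ccnd2, cyclin D2, was at 2.12, 6.04 and 9.69 TPM without IL-4 and 34.3, 32.1 and 62.01 TPM with it (log2 difference 2.76 ± 0.59, adjusted p = 0.00487), and its call was lost without replicate 1 without IL-4 (adjusted p = 0.0536). It was the 1 call among 11 G1 cyclins and CDK inhibitors. Tyms, thymidylate synthase, rose by 1.31 ± 0.22 (adjusted p = 0.000355), the 1 call among 21 S phase genes, and none of 16 G2 and mitosis genes was called. Sesn1, a stress-induced brake on mTORC1, was at 40.7, 36.3 and 34.6 TPM without IL-4 and 12.96, 14.8 and 12.1 TPM with it (log2 difference -1.42 ± 0.15, adjusted p = 1.07e-06), the 1 fall among 17 quiescence genes.

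Several biosynthetic lists had medians above that of all genes with few or no called members, beside 4.04% of all genes called. The median was 0.37 for 21 MYC target and ribosome biogenesis genes, of which 20 had a positive difference and none was called; Myc itself was not called (0.48 ± 0.34, adjusted p = 0.72). It was 0.50 for 21 cholesterol synthesis genes, with 19 positive and 1 called, Idi1, an isomerase of the isoprenoid pathway (0.82 ± 0.16, adjusted p = 0.00208), a call lost after median-of-ratios rescaling (adjusted p = 0.0624). It was 0.44 for 17 endoplasmic reticulum stress and chaperone genes, with 14 positive and 2 called, the chaperone partners Manf (1.33 ± 0.19) and Sdf2l1 (1.31 ± 0.26), with adjusted p of 6.08e-05 and 0.00288. It was 0.56 for 20 amino acid, one-carbon and ATF4 genes, with 16 positive and 2 called. These were Chac1, a glutathione-degrading enzyme (0.97 ± 0.22, adjusted p = 0.00761), lost with a pseudocount of 0.1 (adjusted p = 0.119), and Psat1, of serine synthesis (0.75 ± 0.21, adjusted p = 0.0415), the latter lost without replicate 1, 2 or 3 without IL-4 or replicate 1, 2 or 3 with it (adjusted p = 0.0639 to 0.169). Over all genes tested, 6343 were positive and 5801 negative. Glycolysis genes had a median of 0.03, CD40 and NF-kB response genes 0.06 and mitochondrially encoded genes -0.20, with 0 of 18, 1 of 20 (Cd83) and 0 of 13 called.

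Of 26 interferon-stimulated genes, 1 rose, 2 fell and 23 were not called. Their median was 0.17, and of all genes 1.65% rose and 2.4% fell. Gbp3, an interferon-inducible GTPase, was at 61.8, 57.5 and 55.4 TPM without IL-4 and 12.3, 12.7 and 11.9 TPM with it (log2 difference -2.15 ± 0.17, adjusted p = 1.04e-08). Its relative Gbp2 was at 29.3, 21.2 and 23.02 TPM without IL-4 and 7.58, 7.16 and 7.31 TPM with it (log2 difference -1.6 ± 0.20, adjusted p = 1.11e-05). Both fell without overlap, with tight replicates. Zbp1, a sensor of Z-form nucleic acid, rose by 1.18 ± 0.21 (adjusted p = 0.000843). Further large falls, outside the lists, were Nid1 (-2.58 ± 0.27), a basement membrane protein, Crisp3 (-2.48 ± 0.28), a secreted protein, Tmcc3 (-2.44 ± 0.37), Arhgef3 (-2.26 ± 0.22), likewise an exchange factor, Pglyrp1 (-2.13 ± 0.32), a peptidoglycan-binding protein, and Rgs2 (-2.13 ± 0.31), a brake on G protein signals, with adjusted p-values from 4.11e-07 (Arhgef3) to 0.000143 (Tmcc3).

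**Figure D4:**
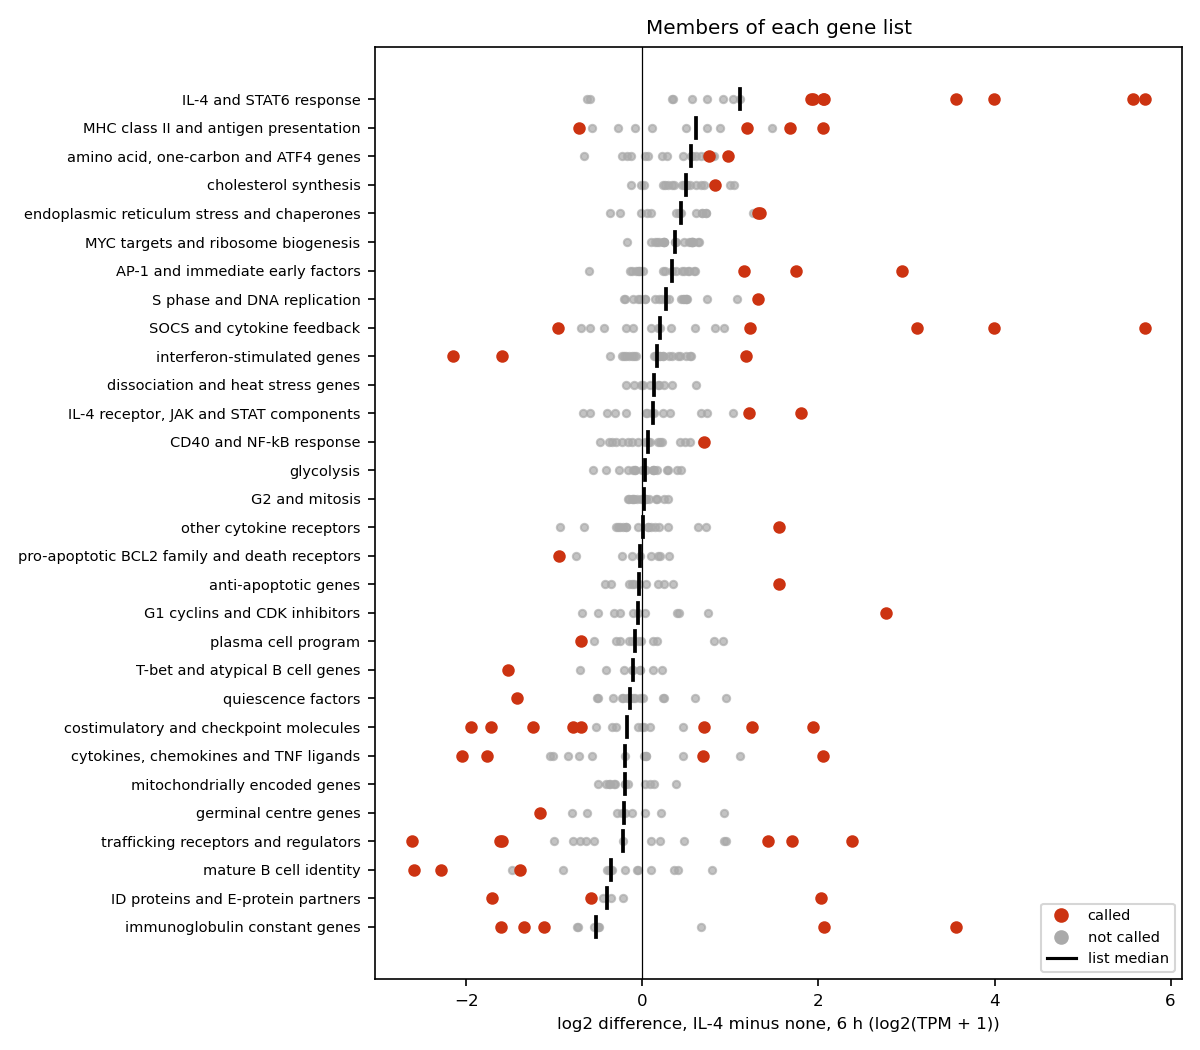
Each row is a gene list and each point a member, placed by its log2 difference with IL-4 minus without; red points are called, grey points are not, and black bars are list medians. The IL-4 and STAT6 list has the highest median, 1.11, and the immunoglobulin constant genes the lowest, -0.53, with Ighg1 and Ighe far to the right of it. All lists were chosen with earlier results of these data known.

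T cell markers summed to 17.65 to 26.37 TPM without IL-4 and 13.02 to 20.6 TPM with it, and 6 of 10 were below 1 TPM, with Cd3e at no more than 0.142 TPM. In that list Cd2 was called lower, at a mean of 12.1 TPM without and 3.42 TPM with IL-4, and Thy1 was called higher, at 0, 0 and 0.0247 TPM without IL-4 and 3.65, 1.06 and 1.12 TPM with it, a call lost without replicate 1 or 2 without IL-4 or replicate 1 with it (adjusted p = 0.0541 to 0.133). Dendritic cell markers summed to 7.77 to 8.29 TPM without and 9.47 to 12.5 TPM with IL-4, which did not overlap; Zbtb46 made up most of this, Siglech and Xcr1 were at or near 0, and of 9 genes 2 were tested and 0 called. Macrophage and monocyte markers summed to 10.74 to 12.48 TPM without and 8.95 to 11.05 TPM with IL-4. Erythroid and platelet markers had the highest sums, 154.5 to 190.6 TPM without and 103.7 to 162.5 TPM with IL-4, most of it globin, with Hbb-bs at up to 82.9 TPM; none of the 9 was called. NK, neutrophil, and mast cell and basophil markers summed to no more than 1.37 TPM in any library. The part of these cells in the differences above was not tested.

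The same IL-4 contrast was measured with IL-21 present, in 6 libraries that share none with those above. There IL-4 raised 154 genes (1.27%) and lowered 351 (2.89%), 4.16% together. Of the 200 genes that rose without IL-21, 190 had the same sign with it (95% against 48.5% of all genes), and 110 were called higher there, which is 55% of the first list and 71.4% of the second. Of the 291 that fell, 266 had the same sign (91.4% against 51.2% of all genes), and 80 were called lower, 27.5% of the first list and 22.8% of the second. The count of calls with IL-21 was 287 without replicate 2 of anti-CD40 with IL-21 and 292 without replicate 1 of the cultures with both cytokines. Fcgr2b fell in both settings, with differences of -2.29 ± 0.16 without IL-21 and -2.31 ± 0.16 with it. St7 (3.33 ± 0.36 and 3.4 ± 0.36) and Snx29 (3.71 ± 0.30 and 3.42 ± 0.30) rose in both. The changes of these effects were not called (adjusted p = 1 for each). Fcer2a, not called without IL-21, was called with it (2.86 ± 0.58, adjusted p = 0.00404), from 26.2 ± 16.01 to 212 ± 165 TPM; the change of its effect was not called (adjusted p = 0.37).

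A change of the IL-4 effect with IL-21 was called for 50 genes (0.412%), of which 18 (0.148%) were higher with IL-21 and 32 (0.263%) lower. Without 1 library at a time this count was 21 to 43. The count moved by over 1.5 times without replicate 1, 2 or 3 of anti-CD40 alone (24, 32 and 23), replicate 2 or 3 with IL-4 (29 and 24), replicate 2 with IL-21 (24) and replicate 1, 2 or 3 with both (21, 28 and 27). Of the 200 risen genes, 14 had a smaller IL-4 effect with IL-21 and 1 a larger one. Among the fallen genes the change was called higher for 13 and lower for 1. Both sets were chosen by their effect without IL-21, which is subtracted in the change. That choice by itself favours smaller effects with IL-21, so these splits cannot show how IL-21 acts on rises or falls as a set. Nfil3 rose by 5.57 ± 0.28 without IL-21 and 2.41 ± 0.28 with it (change -3.16 ± 0.39, adjusted p = 0.000445), Cish by 5.71 ± 0.31 and 3.03 ± 0.31 (change -2.68 ± 0.43, adjusted p = 0.0034), and Pkib by 5.03 ± 0.21 and 3.07 ± 0.21 (change -1.96 ± 0.30, adjusted p = 0.00224). Without IL-4, Nfil3 was at 1.41 ± 0.381 TPM with anti-CD40 alone and 35.8 ± 5.89 TPM with IL-21, and Cish at 0.809 ± 0.317 and 11.1 ± 1.87 TPM (mean ± SD, n = 3). With both cytokines Nfil3 reached 193 ± 22.9 TPM and Cish 97.2 ± 11.6 TPM. Socs3 was at 387 ± 72.2 TPM with IL-21 and 432 ± 69.8 TPM with both, and the IL-4 effect was 0.16 ± 0.27 there (change -2.95 ± 0.39, adjusted p = 0.000445). The effect on Il7r changed in the same direction (-1.54 ± 0.23, adjusted p = 0.00209). In the other direction Crisp3 differed by -2.48 ± 0.28 without IL-21 and by -0.41 ± 0.28 with it (change 2.07 ± 0.39, adjusted p = 0.0166), from a level that IL-21 alone had left at 0.958 ± 0.865 TPM.

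At 24 h, again in separate libraries, IL-4 raised 1006 genes (8.28%) and lowered 2810 (23.1%), 31.4% together, and the median of all genes was -0.31. After median-of-ratios rescaling, which removes that shift, 2314 were higher and 1973 lower, so 24 h differences are given relative to the median of all genes. Left-out libraries moved the 24 h count to 2409 (replicate 3 of anti-CD40), 2514 and 2452 (replicates 2 and 3 with IL-4). Of the 200 early rises, 167 had the same sign at 24 h before this centring (83.5% against 30.4% of all genes) and 101 were called higher, 50.5% of the early list and 10.04% of the late one. Of the 291 early falls, 285 had the same sign (97.9% against 69.5%) and 236 were called lower, 81.1% and 8.40% of the lists. These signs and calls are all from the fit before centring, with a median of -0.31 over all genes. The shares of rises and of falls therefore cannot be set against each other.

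**Figure D5:**
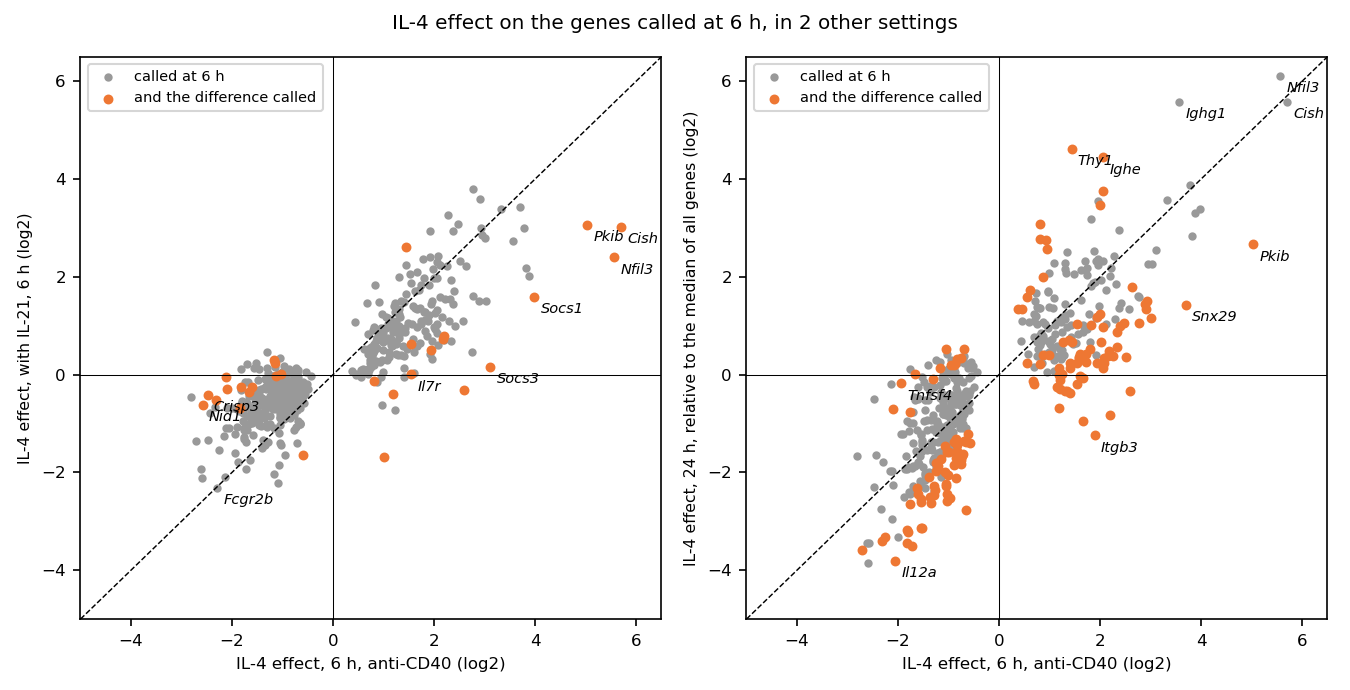
The 491 genes called at 6 h, with their IL-4 effect without IL-21 on the x axis and, on the y axis, their effect at 6 h with IL-21 (left) or at 24 h relative to the median of all genes (right), all in log2; the dashed line marks equal effects. Orange points have a called change of the effect; Nfil3, Cish and Socs3 lie below the line with IL-21, while Ighe and Thy1 lie above it and Itgb3 below it at 24 h.

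The change of the IL-4 effect from 6 h to 24 h was called for 873 genes (7.19%), 257 higher (2.12%) and 616 lower (5.07%), or 959 higher and 739 lower after rescaling. The count without 1 library was 405 to 3887. It moved to 459 without replicate 2 of anti-CD40 at 6 h, 478 and 496 without replicates 1 and 2 with IL-4 at 6 h, 543 and 411 without replicates 1 and 3 of anti-CD40 at 24 h, and 3887, 405 and 416 without replicates 1, 2 and 3 with IL-4 at 24 h. The p-values of changes are from the fit before centring. Among the early rises, Cish and Nfil3 had 24 h effects of 5.59 and 6.12 and changes that were not called (adjusted p = 0.564 and 0.745). Pkib had lost part of its rise (2.67 at 24 h, change -2.34 ± 0.30, adjusted p = 2.92e-05), as had Snx29 (1.43, change -2.26 ± 0.43, adjusted p = 0.00102). Itgb3 stood below its control (-1.24, change -3.12 ± 0.55, adjusted p = 0.000727). Ighe grew further, to 22.97 ± 17.5 TPM with IL-4 at 24 h against 0.146 ± 0.0583 TPM without (change 2.41 ± 0.43, adjusted p = 0.00564), as did Ccl17 (1.72 ± 0.33, adjusted p = 0.0128). The effect on Idi1 was also larger (change 1.96 ± 0.23, adjusted p = 0.000183). Idi1 with IL-4 was at 276, 314 and 303 TPM at 6 h and 282, 343 and 456 TPM at 24 h. With anti-CD40 alone Idi1 went down from 159, 175 and 169 TPM to 66.2, 58.6 and 65.5 TPM. Among the early falls, Il12a went further down (-3.81 at 24 h, change -1.74 ± 0.34, adjusted p = 0.00102), while Tnfsf4 was close to its control (-0.17, change 1.79 ± 0.31, adjusted p = 0.00691), where anti-CD40 alone had a level of 0.985 ± 0.418 TPM. Socs2 and Bcl6, not called at 6 h, differed by 4.06 and -2.33 at 24 h, with changes of 4.67 ± 0.65 (adjusted p = 0.000434) and -1.69 ± 0.36 (adjusted p = 0.00178). All changes named in these sentences with an adjusted p below 0.05 were also called after rescaling and without each library in turn.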

How the data were processed

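PolyA RNA was sequenced in 27 libraries of mouse splenic B cells, 9 groups of 3. The deposited table holds TPM per gene for 35604 genes. Salmon 1.9.0 and the build GRCm38 (mm10) are named in the submitters' processing notes; the annotation and filters are not given in the sources used here. TPM keeps no depth, so depth per sample and counting error are unknown. Gene names and coordinates are from GENCODE M21 (GRCm38), which named 35301 of the IDs.

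Groups were taken from the labels. The 12147 genes that reached 1 TPM in 3 or more of the 27 libraries were fitted as log2(TPM + 1) with limma 3.58.1 in R 4.3.3, with 9 group means, 18 residual degrees of freedom, a variance trend, and Benjamini-Hochberg adjustment over all genes tested; calls used an adjusted p below 0.05. Named were the 14 largest called differences per direction (groups not overlapping, 5 TPM or more on average in the higher one), the 4 largest changes of the effect per direction, up to 4 called members per direction of each list, and a fixed set of IL-4 genes; others were added after their values were seen, and some genes are not reported here. The members and the 38 gene lists were chosen with earlier results of these data known. Same-numbered libraries of the 2 main groups deviated together in 3 of 3 pairs (correlations 0.107 to 0.382), which pairs them by data, not by a label; a fit with the number as a block was an alternative. Other alternatives were median-of-ratios rescaling, a TPM minimum of 5 or none, a smaller pseudocount (0.1), leaving out mitochondrial, ribosomal protein and pseudogene transcripts, no variance trend, only the groups compared, and each library left out.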

Additional observations from a re-analysis of the deposited data

Results flagged for a closer look

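For 34 named genes the IL-4 effect at 24 h differed from that at 6 h by the test of the difference itself; values are 24 h minus 6 h in log2, relative to the median of all genes. Among early rises that were smaller at 24 h, receptors and adhesion molecules had Itgb3 at -3.12, Il7r at -1.31 and Tnfrsf14 at -1.22. Pkib was at -2.34, Snx29 at -2.26, Dock10 at -1.83, Stat5b at -1.496, Id1 at -1.35, Zbp1 at -1.17 and Cflar at -0.49. H2-DMb1 was at -1.91, Ciita at -1.85 and H2-DMb2 at -1.73, the 3 called of 12 antigen presentation genes. Cd86 was at -0.73, not called after rescaling (adjusted p = 0.346). Larger at 24 h were Thy1 (3.20), Ighe (2.41), Idi1 (1.96) and Ccl17 (1.72). Among early falls, the IL-4 effect was more negative at 24 h for Icosl (-1.77), Il12a (-1.74), Arhgef3 (-1.04) and Cd80 (-0.999). The same held for Ltb (-0.88), Fcrl1 (-0.86), Gbp2 (-0.83) and Btla (-0.54), while the effect on Tnfsf4 (1.79) was less negative. Icosl with anti-CD40 alone went from 17.4, 9.0 and 10.1 TPM at 6 h to 66.9, 66.4 and 101 TPM at 24 h. With IL-4 added, Icosl went from 4.19, 2.55 and 2.11 TPM to 9.13, 4.01 and 2.35 TPM. Mzb1 (1.24) went from -0.70 at 6 h to 0.53 relative to the median at 24 h. Of genes not called at 6 h, Socs2 (4.67), Tmem176b (3.58) and Slpi (3.13) moved up and Cr2 (-4.34), Trim7 (-3.02) and Bcl6 (-1.69) down. After rescaling 27 of the 34 were also called, and 25 stayed called without each library. Beside Cd86, the changes not called after rescaling were those of Btla (adjusted p = 0.583), Cflar (0.496), Ltb (0.181), Fcrl1 (0.103), Zbp1 (0.0868) and Cd80 (0.0684).

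For 16 genes the IL-4 effect at 6 h differed with IL-21 present; values are with IL-21 minus without, in log2. Smaller or more negative with IL-21 were the effects on Nfil3 (-3.16), Socs3 (-2.95), Olfr805 (-2.87), Cish (-2.68), Socs1 (-2.39), Pkib (-1.96), Zbp1 (-1.58), Il7r (-1.54), Cd86 (-1.43), Id2 (-1.06) and Cflar (-0.93). Higher with IL-21 were the effects on Slpi (2.94), Pglyrp1 (2.09), Crisp3 (2.07), Nid1 (1.97) and Iglc3 (1.35). At 6 h with anti-CD40 alone Pglyrp1 was at 10.7, 6.96 and 5.49 TPM and Nid1 at 17.5, 10.8 and 10.003 TPM. With IL-21 and no IL-4 Pglyrp1 was already at 0.633, 0 and 0.799 TPM and Nid1 at 1.33, 1.38 and 1.22 TPM. Iglc3 was at 239, 223 and 205 TPM there. The part of low starting levels in these changes was not tested. After rescaling 11 of the 16 were also called, and 8 stayed called without each library. Among those not called after rescaling were Cflar (adjusted p = 0.224), Cd86 (0.187), Zbp1 (0.0882) and Id2 (0.0514). Without 1 library the change was lost in 10 fits for Cd86 and 10 for Cflar. It was lost in 5 fits for Olfr805, 4 for Zbp1 and 1 for Socs1.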

How the results depend on the processing

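Of 80 called genes named, 48 stayed called under every alternative run, 32 were lost under at least one, and 57 stayed called without each library in turn. TPM gives no counts, so depth limits cannot be stated, and 3 libraries per group limit the precision. Causes of the shifts below were not tested.

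Beside losses given with the results, calls were lost (adjusted p in parentheses) for Il4i1 (0.101), Cd44 (0.0873), H2-DMb2 (0.0897), Thy1 (0.0753), Tnfrsf14 (0.0614), Il10 (0.104), Ctss (0.074), Cd80 (0.155), Basp1 (0.0695), Cxcr4 (0.168) and Fcmr (0.162) in a fit of only the groups compared, for H2-DMb2 (0.0553), Tnfrsf14 (0.0665), Stat5b (0.0691), Ciita (0.0701), Psat1 (0.0702), Il10 (0.0831), Socs5 (0.0675), Cxcr4 (0.0744) and Fcmr (0.0984) without a filter, for Psat1 (0.0526) without a variance trend, for Il10 (0.0608) with the filter at 5 TPM, for Ctss (0.153) and Iglc1 (0.0866) after median-of-ratios rescaling, for Cd80 (0.167) and Socs5 (0.0639) with a pseudocount of 0.1, and for Cd80 (0.0707) without mitochondrial, ribosomal protein and pseudogene transcripts.

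The 491 calls at 6 h became 759 after median-of-ratios rescaling, with 365 to 408 in leave-one-out fits, and 586 with the replicate block (487 shared with the 491), which lost Il10 (adjusted p = 0.0518) and gained Ccl22 (adjusted p = 0.0359). The 3816 calls at 24 h became 913 in a fit of only those groups, and 2409 to 5697 without 1 library. The 873 changes with time became 572 without a filter, 1698 rescaled, 1548 without mitochondrial, ribosomal protein and pseudogene transcripts, 198 in a fit of only those groups, and 405 to 3887 without 1 library. The 505 calls with IL-21 became 1778 without a filter, 250 at 5 TPM, 965 without those transcripts, 174 in a fit of only those groups, and 287 to 515 without 1 library; their share of rises went from 30.5% to 21.9% without those transcripts. The 50 changes with IL-21 became 24 at a pseudocount of 0.1, 219 without a filter, 23 at 5 TPM, 86 without those transcripts, 96 with the replicate block, and 21 to 43 without 1 library. Here 15 of 18 same-numbered pairs of libraries correlated over 0.1. Their correlations were 0.0736 to 0.382, and those of differently numbered libraries -0.29 to 0.111. No label gives a pairing, and the main fit did not use the numbers.

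Sign changed in 8 named genes, none of them called, and each time without 1 library; over these fits the log2 differences ranged from -0.014 to 1.05 for Fcer2a, -0.32 to 0.44 for Olfr805, -0.14 to 0.39 for Stat6, -0.23 to 0.33 for Il21r, -0.13 to 0.10 for Irf4, -0.23 to 0.10 for Pax5, -0.39 to 0.10 for Slpi and -1.07 to 0.0102 for Il2rg.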
